A study of Homo sapiens with 10 samples.

Results

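A set of 10 genes of the nuclear lamina and of HMG (high mobility group) proteins was taken by symbol from the deposited gene table. The genes were chosen as lamins and chromatin proteins that change in senescent cells, and the set does not cover all lamina or HMG genes. All 10 were found: LMNA, LMNB1, LMNB2, LBR, TMPO, HMGB1, HMGB2, HMGB3, HMGA1 and HMGA2, of 46427 genes listed. The rule used their symbols only, although the set was drawn up with earlier results of these data known. Poly(A) RNA was sequenced in 10 libraries of H460 and A549 cells, which are established human lung cancer cell lines. H460 cells gave 3 parental libraries in 2D culture, 1 CR library from cells that survived 4 µM cisplatin, 2 PR libraries from cells that survived 5 nM paclitaxel, 1 DR library from cells that survived 0.5 µM doxorubicin, and 1 TS library. A549 cells gave 1 library in 2D culture and 1 TS library. Each drug was given for 3 days and the survivors were kept in fresh medium for 3 more days. TS cells were grown as spheres in suspension and are named CTC in the sample labels, and they differed from 2D cells in both the culture method and the medium. The labels name no engineered allele in any group. The labels do not say whether replicates were separate cultures, so that the p-values measure the spread between these libraries, which may be technical.

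The lamins are intermediate filament proteins that line the inner nuclear membrane and anchor chromatin to it. A-type lamins come from LMNA, and B-type lamins come from LMNB1 and LMNB2. LBR is an inner membrane protein that binds B-type lamins and heterochromatin and also carries a sterol reductase activity, and TMPO encodes the LAP2 proteins, which tie the lamina to chromatin. HMGB proteins bend DNA through HMG boxes, and HMGB1 also acts as a danger signal outside the cell. HMGA proteins bind the minor groove of AT-rich DNA through AT hooks, and HMGA2 is an embryonic form that let-7 miRNAs repress. Loss of LMNB1 and HMGB2 mRNA is known from senescent cells, and many of these genes are transcribed most in dividing cells.

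The genes are spread over the genome (RefSeq, GRCh38.p14). LMNA lies at chr1:156082573-156140081 and LBR at chr1:225401502-225428821, LMNB1 at chr5:126776623-126837020, LMNB2 at chr19:2428166-2456959 and TMPO at chr12:98515573-98550351. HMGB1 lies at chr13:30456704-30617597, HMGB2 at chr4:173331376-173334358 and HMGB3 at chrX:150980507-150990771, while HMGA1 lies at chr6:34236873-34246231 and HMGA2 at chr12:65824460-65966291. Promoter windows of 300 bases, from 250 before to 50 after a RefSeq start site, were given for 8 of the 10 genes (16 windows, GRCh38.p14). HMGB2 and HMGA2 had no entry. The windows were searched on both strands for the CCAAT box, whose letters are its name, and for the CHR element of cell cycle genes, written TTTGAA in its usual form and TTCGAA in a variant form. An E2F core was counted where the 7 letters TTCCCGC were found, and the forms with GG, with CG and with GC in place of the first CC were counted as well. Of the 16 windows, 9 held a CCAAT box (in 6 of the 8 genes), 3 held a CHR and 1 held an E2F core, while 34.6%, 16.4% and 12.9% of the 34943 windows of all genes held the same letters. The windows of 1 gene can overlap and are not independent. Windows with 3 or more CCAAT boxes made up 3.26% of all windows, and 1 window each of HMGB1 and HMGB3 was among them. The printed windows of HMGB1 and HMGB3 were picked for the most CCAAT boxes, and both genes also had a window without one. The LMNA window was picked for the fewest UTR and coding bases, then for more CCAAT boxes. LMNA was not called different in any comparison, and HMGB1 and HMGB3 were both lower in every drug-resistant library. LBR and LMNB2 had no CCAAT box in their windows and were also lower in every drug-resistant library. A link between these letters and the levels was not tested. Only the longest stretch upstream of the start site that lies outside annotated UTR and coding bases is printed, 5′ to 3′ on the strand of the gene, with motif letters in capitals.
LMNA promoter, chr1:156082323-156082572, plus strand: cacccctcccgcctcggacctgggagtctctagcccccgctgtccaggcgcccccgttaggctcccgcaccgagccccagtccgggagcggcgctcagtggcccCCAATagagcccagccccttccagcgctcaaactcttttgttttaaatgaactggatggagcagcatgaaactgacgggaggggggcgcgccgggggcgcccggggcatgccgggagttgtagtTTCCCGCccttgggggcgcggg
HMGB1 promoter, chr13:30465966-30466186, minus strand: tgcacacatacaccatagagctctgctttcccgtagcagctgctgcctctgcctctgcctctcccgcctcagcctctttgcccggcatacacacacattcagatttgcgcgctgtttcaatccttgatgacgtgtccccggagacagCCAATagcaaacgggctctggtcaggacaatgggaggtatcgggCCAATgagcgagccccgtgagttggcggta
HMGB3 promoter, chrX:150983085-150983285, plus strand: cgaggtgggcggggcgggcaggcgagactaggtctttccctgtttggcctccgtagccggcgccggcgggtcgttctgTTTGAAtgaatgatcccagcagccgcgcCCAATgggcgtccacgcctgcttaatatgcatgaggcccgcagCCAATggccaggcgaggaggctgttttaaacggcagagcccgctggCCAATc
The LMNA stretch held a CCAAT box and the only E2F core found in these genes. The HMGB1 stretch held 2 of the 3 CCAAT boxes of its window, and the HMGB3 stretch held a CHR followed by 3 CCAAT boxes. None of these matches overlapped another. They are letters in a window, and binding was not measured.

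Between 59499787 and 89541774 reads were counted on genes per library, and levels are given as FPKM, read fragments scaled to transcript length and library size. Epithelial markers summed to an FPKM of between 985 and 1139 in parental libraries. The sum was between 712 and 1624 after the drugs, 902 in TS cells of H460, and 2801 (2D) and 7177 (TS) in A549 cells. They rested on the keratins KRT8, KRT18 and KRT19, while EPCAM and CDH1 were under an FPKM of 1 in every H460 library. A list of 7 leukocyte, endothelial and fibroblast markers summed to between 15.3 and 19.5 in parental and between 38.1 and 60.7 in drug-resistant libraries. The TS cells of H460 gave 47.9, and A549 cells gave 19.6 (2D) and 70.7 (TS). Most of that sum was CD68, a lysosomal protein that epithelial cells also make, and, in H460 TS cells, LUM. PTPRC, CD3E, PECAM1 and VWF were under an FPKM of 1 in all 10 libraries. Library names come in 2 forms, which the labels do not explain: parental replicates 1 and 3, PR replicate 1, both TS libraries and the A549 2D library share one form, and the other libraries share the other. PR replicate 1 alone has a suffix added to its name, which the labels do not explain either. In bulk RNA, fewer cells of a type and less RNA per cell cannot be told apart.

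The first comparison asked which of these genes differ between cells that survived a drug and parental H460 cells. In the edgeR quasi-likelihood fit of 4 drug-resistant and 3 parental libraries, 8 of the 10 genes were lower, 1 was higher and 1 was not called at a Benjamini-Hochberg adjusted p under 0.05. Of the 18398 genes tested, 33.8% were called, 15.3% lower and 18.5% higher. The median log2 fold change was -2.06 over the 10 genes and 0.06 over all genes tested. With upper-quartile scaling the median over all genes was 0.23 and the calls split into 4210 higher and 2032 lower, against 3397 higher and 2823 lower, and the same 8 genes were called lower. Every drug-resistant library was below every parental library for LMNB1, LMNB2, LBR, TMPO, HMGB1, HMGB2, HMGB3 and HMGA1, an order that 13.6% of the tested genes showed in FPKM. LMNA and HMGA2 overlapped between the groups.

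**Figure D1:**
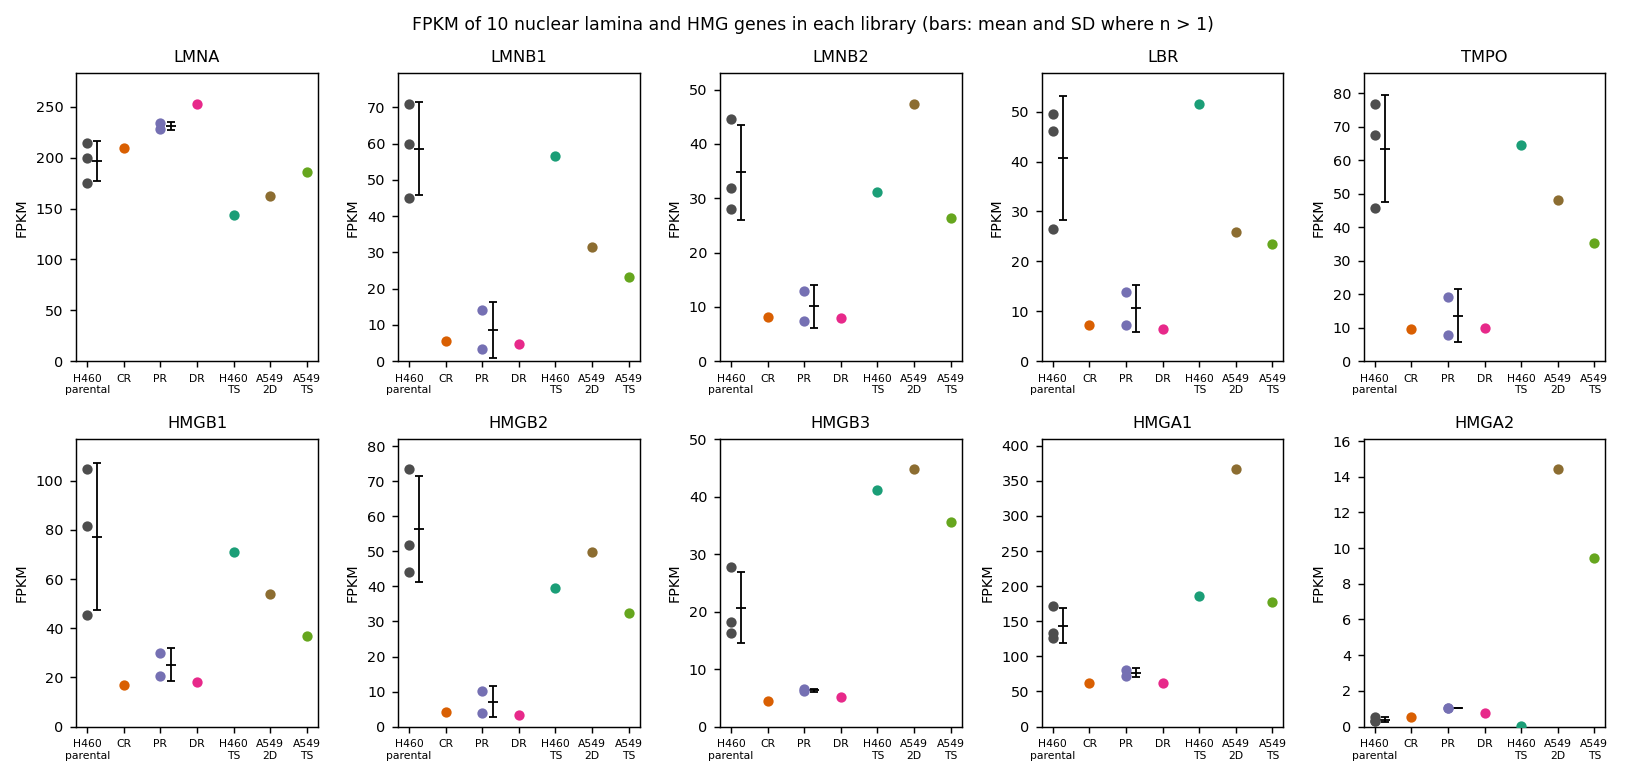
FPKM (vertical axes, linear, from 0) of each gene in each library, by group along the horizontal axis. Points are libraries, and bars are the mean and SD where a group has more than 1 library. For 8 genes the CR, PR and DR points all sit below the 3 parental points, LMNA stays between 143 and 253 in all libraries, and HMGA2 is above 9 only in the 2 A549 libraries.

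Among the B-type lamins, LMNB1 was at an FPKM of 70.9, 59.9 and 45.1 in the parental libraries, 5.71 in CR, 14.1 and 3.24 in PR and 4.86 in DR cells. The highest drug-resistant value, PR replicate 1, was 3.19-fold below the lowest parental value. LMNB1 fell by 3.21 on the log2 scale (SE 0.43, edgeR adjusted p = 0.000582), from a parental mean of 58.6 ± 12.9 (SD, n = 3) to 6.99 ± 4.87 (SD, n = 4). LMNB2 was at 44.7, 31.8 and 27.99 in parental, 8.21 in CR, 12.9 and 7.34 in PR and 7.96 in DR cells, again without overlap. LMNB2 fell by 2.05 on the log2 scale (SE 0.24, edgeR adjusted p = 0.000364). The FPKM ratio of LMNB1 to LMNB2 was between 1.59 and 1.88 in parental libraries and between 0.442 and 1.10 in drug-resistant libraries.

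LMNA, which encodes lamins A and C, was at an FPKM of 175, 214 and 200.03 in parental, 209.9 in CR, 229 and 234 in PR and 253 in DR cells. The CR library lay among the parental libraries and the other 3 lay above them. The edgeR log2 fold change was 0.08 (SE 0.20, adjusted p = 0.764). It was -0.02 without the DR library and 0.26 with upper-quartile scaling. LMNA made up 60.3%, 70.0% and 73.2% of the summed lamin FPKM in parental libraries, and 93.8% in CR, 89.4% and 95.7% in PR and 95.2% in DR libraries. The ratio of LMNA to LMNB1 rose from between 2.47 and 4.44 in parental libraries to 36.7 in CR, 16.2 and 72.1 in PR and 52.0 in DR libraries. The sum of the 3 lamins was 289.9 ± 16.4 (SD, n = 3) before and 247 ± 17.8 (SD, n = 4) after the drugs.

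**Figure D2:**
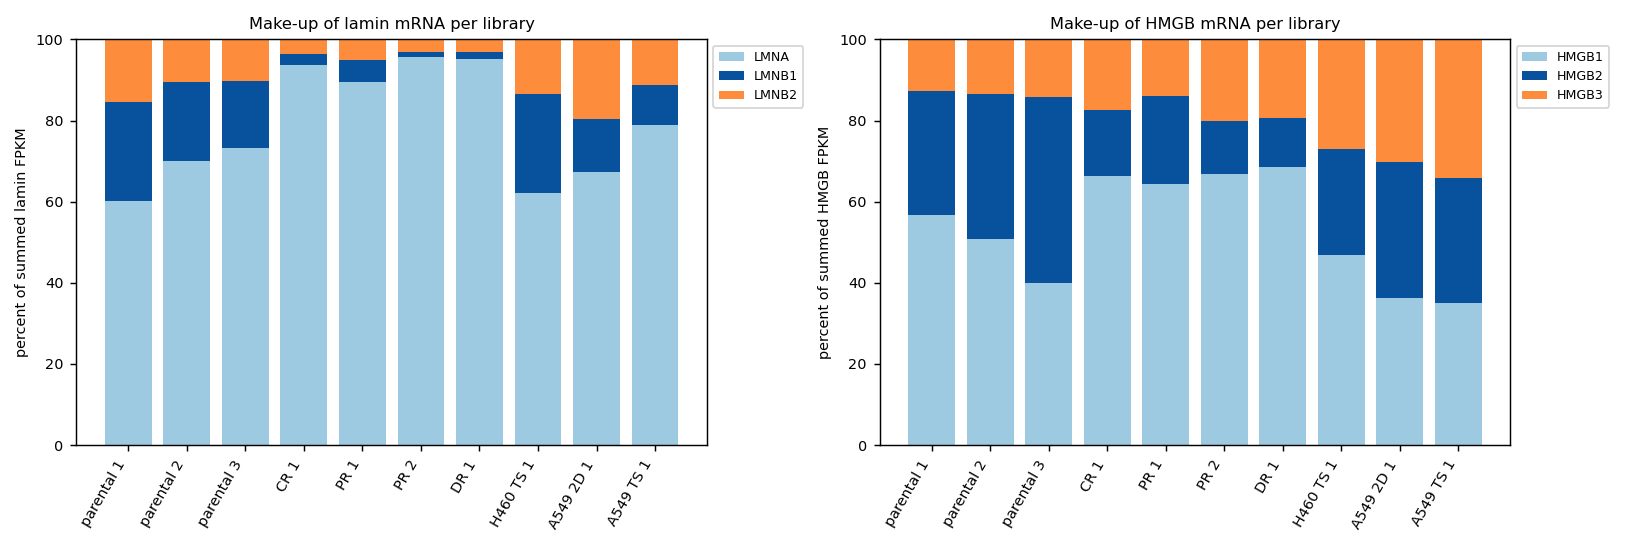
Share of each gene in the summed lamin FPKM (left) and the summed HMGB FPKM (right), in percent, with 1 stacked bar per library. LMNA takes between 89.4% and 95.7% of the lamin sum in the 4 drug-resistant libraries and between 60.3% and 78.9% in the other 6, and the HMGB2 share is lowest in the drug-resistant libraries.

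LBR was at an FPKM of 46.1, 49.5 and 26.4 in parental libraries and at 7.20 in CR, 13.9 and 7.30 in PR and 6.50 in DR libraries. Parental replicate 3 was closest to the drug-resistant libraries and was still 1.91-fold above PR replicate 1. The fall was 2.33 on the log2 scale (SE 0.29, edgeR adjusted p = 0.000407). TMPO was at 76.8, 67.7 and 45.7 in parental libraries and at 9.52 in CR, 19.1 and 7.97 in PR and 9.91 in DR libraries. It fell by 2.55 on the log2 scale (SE 0.30, edgeR adjusted p = 0.000355). Reads of TMPO and of the neighbouring antisense gene TMPO-AS1 cannot be told apart, since the counting is not stated to use strand, and the TMPO-AS1 row held at most 2.65% of the reads of both.

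All 3 HMGB genes were lower. HMGB2, which has the largest fall of the 10 genes, was at an FPKM of 44.2, 73.4 and 51.9 in parental, 4.17 in CR, 10.2 and 3.97 in PR and 3.20 in DR cells. Its mean was 10.5-fold lower, 5.38 ± 3.23 (SD, n = 4) against 56.5 ± 15.1 (SD, n = 3), and it fell by 3.51 on the log2 scale (SE 0.37, edgeR adjusted p = 0.000245). HMGB1 was at 81.7, 104.6 and 45.3 in parental, 17.0 in CR, 30.1 and 20.4 in PR and 18.1 in DR cells, and fell by 2.07 on the log2 scale (SE 0.28, edgeR adjusted p = 0.000593). HMGB3 was at 18.1, 27.7 and 16.2 in parental, 4.46 in CR, 6.49 and 6.10 in PR and 5.09 in DR cells, and fell by 2.00 on the log2 scale (SE 0.20, edgeR adjusted p = 0.000196). The share of HMGB2 in the summed HMGB FPKM went from between 30.7% and 45.8% in parental libraries to between 12.1% and 21.8% in drug-resistant libraries.

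HMGB1 has many processed copies in the genome. The 29 HMGB1 pseudogene rows of the table held between 25.04% and 31.4% of the reads of HMGB1 and its copies, most of them on HMGB1P6 (49.3% of the reads on copies) and HMGB1P5 (43.4%), so that the level of HMGB1 itself is uncertain. HMGB1 and its copies together took 687, 864 and 392 of every 1000000 reads in parental libraries, and 133 in CR, 212 and 146 in PR and 143 in DR libraries. Counted together they fell by 2.11 on the log2 scale (edgeR adjusted p = 0.000456), an alternative chosen after seeing the data. Copies of HMGB3 held at most 7.89% and copies of HMGA1 at most 1.56% of the reads in a library.

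The HMGA genes went in opposite directions. HMGA1 was at an FPKM of 172, 126 and 133 in parental, 61.4 in CR, 80.9 and 71.8 in PR and 62.4 in DR cells. It fell by 1.18 on the log2 scale (SE 0.19, edgeR adjusted p = 0.00141), the smallest of the 8 falls. HMGA2 was low in all H460 libraries, at 0.539, 0.292 and 0.285 in parental, 0.538 in CR, 1.04 and 1.04 in PR and 0.762 in DR cells. These values came from 161, 89 and 99 reads in parental, 174 in CR, 307 and 257 in PR and 288 in DR libraries. The CR value equalled the highest parental value within 1%, and the PR and DR values were higher. The log2 fold change of HMGA2 was 0.99 (SE 0.32, edgeR adjusted p = 0.0371), and over 13 alternatives the adjusted p was between 0.012 and 0.121, with 5 under the threshold. Leaving out parental replicate 2 (0.121), parental replicate 3 (0.099), PR replicate 1 (0.0841), PR replicate 2 (0.094) or the DR library (0.0716) each ended the call.

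**Figure D3:**
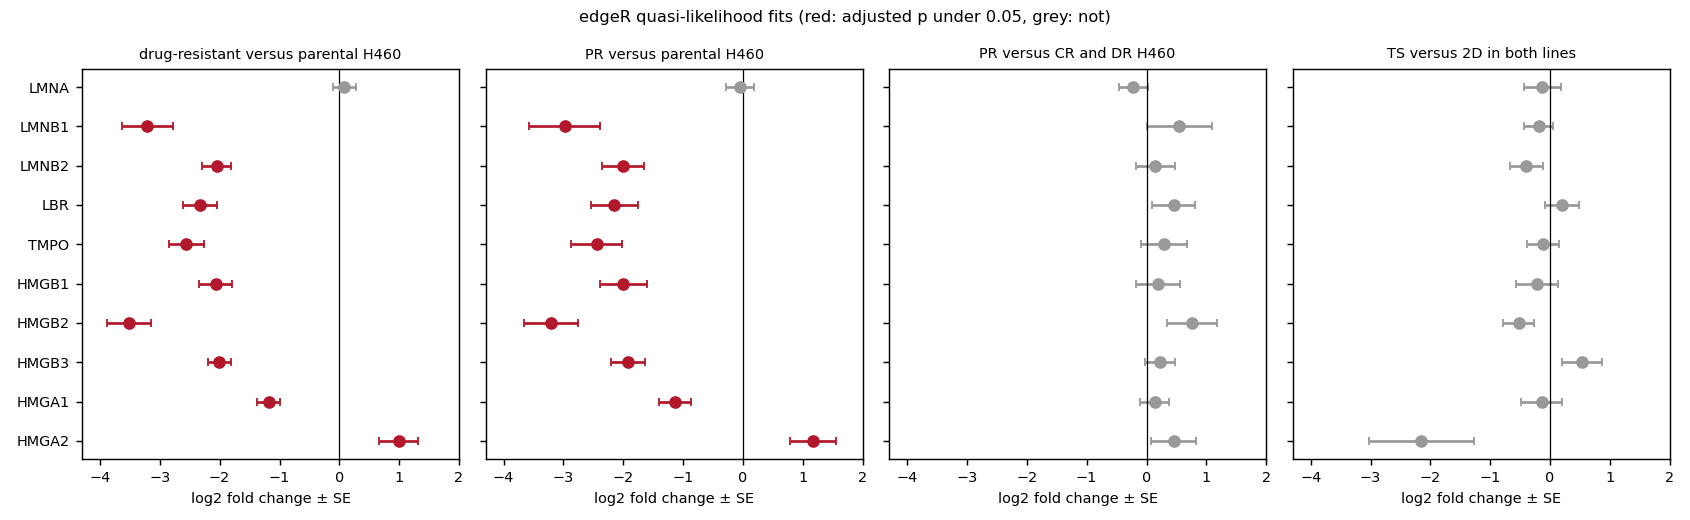
log2 fold change with its SE (horizontal axes) of each gene in the 4 edgeR fits, with red points at an adjusted p under 0.05 and grey points otherwise. In the fits against parental cells 8 genes lie between -3.51 and -1.14 and HMGA2 lies at 0.99 and 1.17, and no point is red in the fits of PR against CR and DR and of TS against 2D.

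The falls were also present within each form of library name. In the form with PR replicate 1 and parental replicates 1 and 3, the difference in log2(FPKM + 1) between drug-resistant and parental libraries was between -2.13 for HMGB2 and -0.90 for HMGA1 over the 8 genes. In the form with CR, PR replicate 2, DR and parental replicate 2 it was between -3.97 for HMGB2 and -0.94 for HMGA1. LMNA was at 0.29 and 0.11, and HMGA2 at 0.54 and 0.45, in the same order. Each form held only 1 library on one side, PR replicate 1 with its name suffix in the first, so that no test was made within a form. All 8 genes kept their calls in all alternatives of this comparison.

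PR cells were the only drug-resistant cells with 2 libraries. All 5 libraries of this comparison were also in the one above, so that the values are not independent of it. Against the parental libraries, the same 8 genes were called lower and HMGA2 higher, where 28.1% of 19430 genes were called, 10.6% lower and 17.5% higher. HMGB2 had a log2 fold change of -3.20 (SE 0.46, edgeR adjusted p = 0.0026) and LMNB1 of -2.98 (SE 0.59, edgeR adjusted p = 0.00693). LMNB2, LBR, TMPO, HMGB1 and HMGB3 lay between -2.44 and -1.93, and HMGA1 lay at -1.14 (SE 0.27, edgeR adjusted p = 0.0131). LMNA was at -0.06 (SE 0.23, edgeR adjusted p = 0.877), a direction that turned with upper-quartile scaling (0.18) and on log2(FPKM + 1) in limma (0.24). HMGA2 was at 1.17 (SE 0.38, edgeR adjusted p = 0.0475), and its call was lost with no filter (adjusted p = 0.054), with the replicate number as a block (0.0666) and when parental replicate 2, parental replicate 3 or either PR library was left out (between 0.08 and 0.24). The PR libraries differed from each other, LMNB1 by 4.36-fold, HMGB2 by 2.56-fold and TMPO by 2.40-fold, and PR replicate 1 was the higher of the pair for each. Without PR replicate 2, 4 of the 8 genes were called lower, since LMNB2, LBR, HMGB1 and HMGA1 had adjusted p between 0.0671 and 0.174, and HMGA1 was also lost without PR replicate 1 (0.0784).

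For CR and DR cells there was 1 library each, and these values have no replicate check. The same 8 genes were past 2-fold below the parental mean on log2(FPKM + 1) in both libraries, while 7.05% of genes in CR and 5.68% in DR cells were past 2-fold lower. None of the 10 was past 2-fold above it, while 5.84% of genes in CR and 5.76% in DR cells were. This scale understates changes of low genes such as HMGA2. In FPKM, HMGA2 was 1.45-fold above the parental mean in CR and 2.05-fold above it in DR cells. LMNB1 was 10.3-fold lower in CR and 12.1-fold lower in DR cells in FPKM. HMGB2 was 13.5-fold lower in CR and 17.7-fold lower in DR cells. HMGA1 was 2.34-fold lower in CR and 2.30-fold lower in DR cells.

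PR cells were also set against the pooled CR and DR cells, and CR was not tested against DR. In the fit of PR against CR and DR libraries none of the 10 genes was called by edgeR, and none was under an unadjusted p of 0.05. By limma and DESeq2 none of them was called either. Of all 19770 genes, 0.0% were called, 2479 were under an unadjusted p of 0.05, DESeq2 called 289 higher and 66 lower, and limma on log2(FPKM + 1) called 98 higher and 3 lower. The largest difference was that of HMGB2, higher in PR cells by 0.76 on the log2 scale (SE 0.42, edgeR adjusted p = 0.487). LMNB1 was at 0.55 (SE 0.54), LBR at 0.46 (SE 0.36) and HMGA2 at 0.46 (SE 0.38). Without PR replicate 1 the values of LMNB1, LMNB2, LBR, TMPO, HMGB1 and HMGB2 turned negative, to between -0.94 and -0.12.

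The next comparison asked how the lists around these genes moved in drug-resistant cells. In this fit 33.8% of all tested genes were called, 15.3% lower and 18.5% higher. All 22 genes of S phase, G2 and mitosis fell, with a median log2 fold change of -3.51, led by CENPF, a kinetochore protein (-4.39, SE 0.70, edgeR adjusted p = 0.00138), and CCNB2, a mitotic cyclin (-4.03, SE 0.48, edgeR adjusted p = 0.000369). MKI67, which marks dividing cells, was at an FPKM of 33.8, 19.9 and 25.8 in parental, 1.01 in CR, 6.15 and 0.655 in PR and 1.22 in DR cells, so that PR replicate 1 was also the highest drug-resistant library for it. Of 15 E2F, DREAM and RB family genes, 10 fell and 5 were not called, with a median of -1.03, led by MYBL2 (-3.38) and E2F8 (-3.12). Of 13 genes known to rise in senescent cells, 10 were tested and 8 rose, with a median of 3.28. MMP1, a collagenase (7.62, SE 0.73, edgeR adjusted p = 0.000193), and IL1B, a cytokine (4.89, SE 1.05, edgeR adjusted p = 0.00613), led them. GLB1 (0.26, SE 0.19, edgeR adjusted p = 0.318) and IL1A (1.91, SE 0.85, edgeR adjusted p = 0.105) were not called. CDKN2A, CDKN2B and MMP3 were too low to be tested, at an FPKM of at most 0.0675 in every library. CDKN1A, an inhibitor of cyclin-dependent kinases, was at 33.0, 25.3 and 20.7 in parental and between 343 and 654 in drug-resistant libraries. The part of these lists in the levels of the lamina and HMG genes was not tested.

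**Figure D4:**
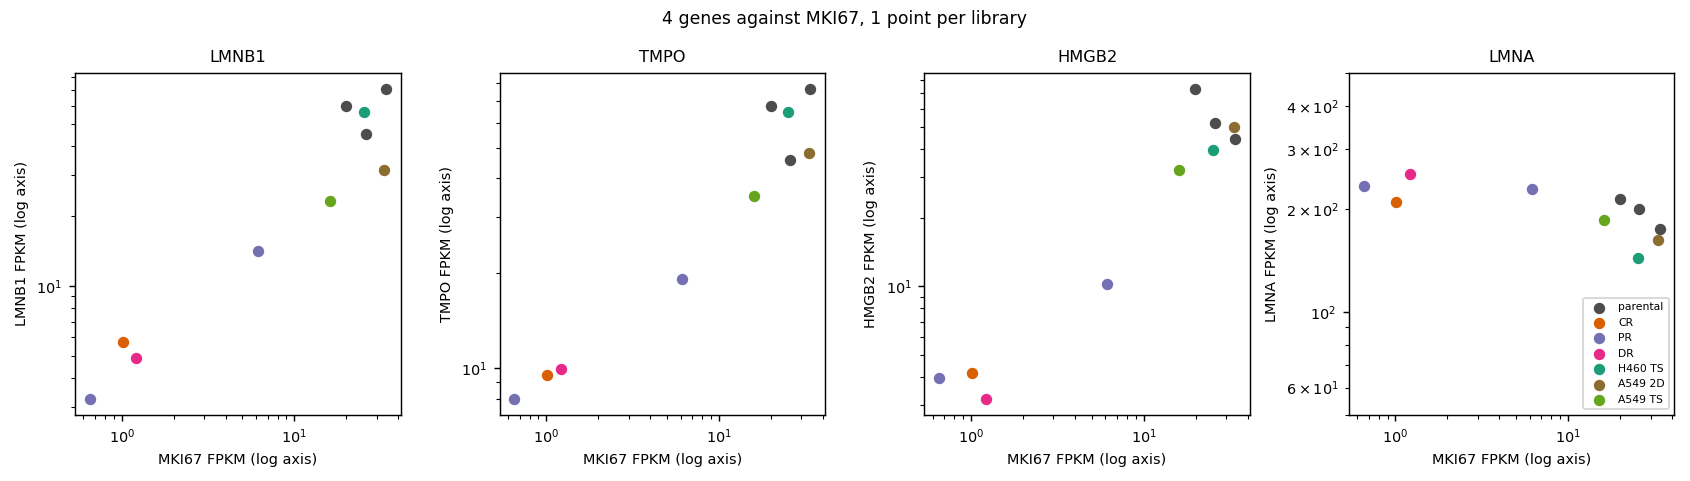
FPKM of LMNB1, TMPO, HMGB2 and LMNA (vertical log axes) against the FPKM of MKI67 (horizontal log axes), with 1 point per library coloured by group. The CR, DR and PR replicate 2 points are lowest on both axes in the first 3 panels, PR replicate 1 lies between them and the other libraries, and LMNA lies between 143 and 253 across the whole range of MKI67.

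Of 22 inner membrane, LINC complex and lamina-bound chromatin genes 7 fell, 2 rose and 13 were not called, with a median of -0.31. Of all tested genes 33.8% were called, 15.3% lower and 18.5% higher. NRM, an inner membrane protein, was at an FPKM of between 12.0 and 13.5 in parental and between 3.17 and 4.42 in drug-resistant libraries (log2 fold change -1.84, SE 0.18, edgeR adjusted p = 0.000209). NEMP1, also of the inner membrane, fell by 1.67 on the log2 scale (SE 0.21, edgeR adjusted p = 0.000412). The 3 HP1 genes CBX5, CBX1 and CBX3, whose proteins bind LBR and methylated histone H3, fell by 0.84, 1.07 and 1.13 on the log2 scale. TMEM43, an inner membrane protein, rose by 0.75 (SE 0.19, edgeR adjusted p = 0.0133), and TOR1B, an ATPase of the nuclear envelope lumen, rose by 0.57 (SE 0.18, edgeR adjusted p = 0.0303). EMD, which encodes emerin, was at 46.6, 56.4 and 41.6 in parental and between 36.9 and 43.2 in drug-resistant libraries and was not called. None of the 5 enzymes that process prelamins was called by edgeR, or was under an unadjusted p of 0.05, while 8295 of the 18398 tested genes were.

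Among relatives of the HMG genes, all 5 HMGN genes, which encode nucleosome-binding proteins, fell, with a median of -1.37. HMGN5 was at an FPKM of 18.5, 41.4 and 14.2 in parental and between 1.54 and 3.83 in drug-resistant libraries (log2 fold change -3.30, SE 0.37, edgeR adjusted p = 0.000277), and HMGN2 fell by 1.69 (SE 0.24, edgeR adjusted p = 0.000792). Of 12 other genes with an HMG box 11 were tested, 4 fell, none rose and 7 were not called. Of all tested genes 15.3% were called lower and 18.5% higher. SSRP1, a subunit of the histone chaperone FACT, fell by 1.64 (SE 0.19, edgeR adjusted p = 0.000371), and TFAM, which packages mitochondrial DNA, fell by 1.28 (SE 0.26, edgeR adjusted p = 0.00488). Of 5 receptors reported for extracellular HMGB1, 4 were tested and TLR4, HAVCR2 and CXCR4 were called higher, all at an FPKM under 1 in every H460 library. TLR4 and HAVCR2 were listed at 0 in all 3 parental libraries and reached at most 0.156 and 0.297 in drug-resistant libraries. Of 6 LIN28 genes and let-7 targets other than HMGA2, the targets IGF2BP1, IGF2BP2, IGF2BP3 and ARID3B were tested and not called, and LIN28A and LIN28B were too low to be tested. Of the epithelial markers 0 of 4 tested were called, and of the markers of other cells CD68, VWF and DCN were called higher in 4 tested, with VWF and DCN at an FPKM under 0.4 in all H460 libraries.

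**Figure D5:**
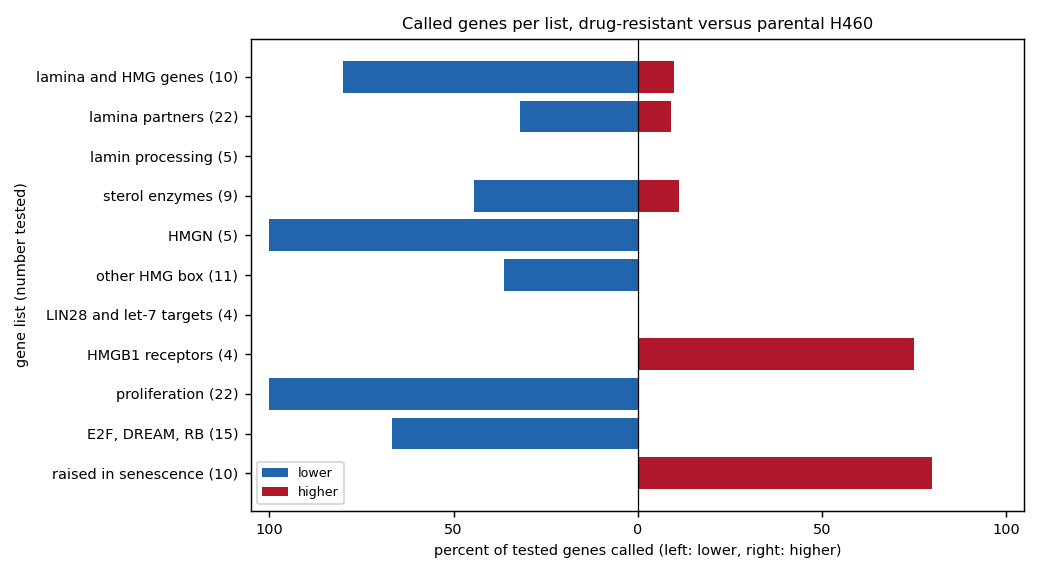
Percent of the tested genes of each list that edgeR called lower (left of 0) or higher (right of 0) in drug-resistant against parental H460 cells, with the number tested in brackets. The proliferation and HMGN lists reach 100% lower, and the lamina and HMG genes have 8 of 10 lower and 1 of 10 higher.

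LBR shares its sterol C14 reductase step with TM7SF2. In drug-resistant cells 4 of 9 enzymes around this step fell, led by EBP (-2.03, SE 0.19, edgeR adjusted p = 0.00019) and DHCR7 (-0.93, SE 0.17, edgeR adjusted p = 0.00317), and TM7SF2 rose by 1.19 (SE 0.36, edgeR adjusted p = 0.0287) from an FPKM of between 0.387 and 0.881 to between 1.19 and 1.76. The other 4 were not called. Among all genes tested in this fit, 15.3% were called lower and 18.5% higher. In TS against 2D cells the 9 enzymes had a median log2 fold change of 1.63, against -0.01 over all genes tested. All 9 were under an unadjusted p of 0.05, as were 1363 of the 18372 genes tested. TM7SF2 was at 0.387, 0.444 and 0.881 in parental and 4.44 in TS H460 cells, and at 3.92 in 2D and 24.0 in TS A549 cells (edgeR adjusted p = 0.0589). LBR itself had a log2 fold change of 0.19 in this fit (SE 0.28, edgeR adjusted p = 1.00).

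The last comparison asked how TS cells differ from 2D cells in both lines. Of the 10 genes none was called by edgeR, where 0.191% of 18372 genes were called (0.147% higher and 0.0435% lower). Only 1 of the 10, HMGA2, was under an unadjusted p of 0.05, as were 1363 of the 18372 genes. With DESeq2, which called 304 genes higher and 223 lower in this design, HMGA2 was called lower (adjusted p = 0.0377), and by limma none was called. A gene that was not called may still differ between TS and 2D cells. In H460 cells none of the other 9 genes was past 2-fold from the parental mean on log2(FPKM + 1), a scale on which HMGA2 could not fall by 2-fold from its parental level, where 1.93% of genes were past 2-fold higher and 1.97% lower. In A549 cells HMGA1 alone was past 2-fold, lower in TS cells, where 3.02% of genes were past 2-fold lower and 6.7% higher. Each line had 1 TS library, and A549 had 1 2D library, so that the values within a line have no replicate check on the TS side.

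For several genes the difference of TS from 2D cells had opposite signs in H460 and A549 cells, which was not tested. HMGA1 was at an FPKM of 186 in H460 TS cells, above the parental values of between 126 and 172, but at 366 in 2D and 178 in TS A549 cells. HMGB3 was at 41.1 in H460 TS cells, 1.99-fold above the parental mean of 20.7 ± 6.17 (SD, n = 3), and went from 44.7 to 35.6 in A549 cells. LMNA was at 143 in H460 TS cells, below all parental libraries, and went from 162 to 186 in A549 cells. LBR was at 51.5 in H460 TS cells, just above the highest parental value of 49.5, and went from 25.8 to 23.5 in A549 cells. The A549 changes of LMNA (1.14-fold), LBR (1.10-fold) and HMGB3 (1.25-fold) were smaller than the range between parental H460 libraries (1.22, 1.87 and 1.71-fold). That of HMGA1 (2.06-fold) was larger than its parental range (1.37-fold). For HMGB2 the TS values were lower in both lines, at 39.6 against between 44.2 and 73.4 in H460 cells and 32.3 against 49.8 in A549 cells, and the difference was not called (-0.52, SE 0.26, edgeR adjusted p = 0.806). LMNB1, LMNB2, TMPO and HMGB1 in H460 TS cells had values inside the parental range, and in A549 TS cells they were between 1.36 and 1.798-fold below 2D cells.

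HMGA2 was the member that differed most between the lines. It was at an FPKM of 14.4 in 2D and 9.42 in TS A549 cells, from 4399 and 3111 reads, against between 0.285 and 0.539 in parental H460 cells, a ratio of 38.8 to the parental mean in 2D. In H460 TS cells 4 reads fell on HMGA2 (exact Poisson 95% interval 1.09 to 10.2, counting error only), which gave an FPKM of 0.0134 and was below the 89 to 161 reads of the parental libraries. The log2 fold change between TS and 2D cells over both lines was -2.15 (SE 0.87, edgeR adjusted p = 0.629). Without the A549 2D library it was -4.62 (edgeR adjusted p = 0.0115) and without the A549 TS library -4.61 (0.0112), fits that then rest on the single H460 TS library. LIN28B, which blocks let-7 maturation, was at 1.88 and 2.23 in A549 cells and at most 0.02 in H460 cells, and IGF2BP1, an RNA-binding protein and let-7 target, was at 13.2 and 11.1 in A549 and at most 0.16 in H460 cells. IGF2BP3 of the same list was at 7.99 and 6.50 in A549 cells and between 10.01 and 15.3 in H460 cells. Between A549 2D and parental H460 cells, HMGB3, HMGA1 and HMGA2 were past 2-fold higher on log2(FPKM + 1), where 11.2% of genes were, and none was past 2-fold lower, where 7.73% of genes were.

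The levels in the 10 libraries were compared with those of 8730 genes by Pearson's r of log2(FPKM + 1), given as a description over libraries that share 3 controls and 2 lines. TROAP, a spindle-associated protein, was most like HMGB2 (r = 0.999), followed by NEK2 and NUSAP1. APPL1, TMPO and NCAPG2 were most like LMNB1 (r between 0.992 and 0.994), and LIN9, MAD2L1 and ANP32E most like LBR (0.986 for each). PLA2R1 was most like LMNA (r = 0.970), and it was at an FPKM of between 6.13 and 8.06 in drug-resistant, between 1.62 and 4.93 in parental and 0.0191 in H460 TS cells. SLCO3A1, SCRN1 and MAGED4B were most like HMGA2 (r between 0.994 and 0.995), and all 3 were highest in the A549 libraries.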

How the data were processed

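Poly(A) RNA libraries were made with a TruSeq kit. The submitters' processing notes name bcl2fastq 1.8.4, Trimmomatic, HISAT2 2.1.0, StringTie 2.1.3b and GRCh38, with no settings. How reads that match several genes were counted is not given in the sources used here. The authors deposited, for each library and gene, whole read counts without normalization, FPKM values normalized for transcript length and library size, and TPM values from the same reads, which were used only to check the columns. Counts were fitted with edgeR 4.0.16 (TMM factors, low-count filter, quasi-likelihood test) in R 4.3.3, with SE taken as the size of the log2 fold change over the root of F and with Benjamini-Hochberg adjustment over all tested genes and a threshold of 0.05. The TS fit had the cell line as a covariate. The 4 libraries of the 3 drugs formed 1 group, whose spread therefore holds differences between drugs. Levels, shares and single libraries used FPKM, with log2(FPKM + 1) for differences, which understates changes of low genes. Alternatives were limma 3.58.1 on log2(FPKM + 1) and log2(FPKM + 0.1), DESeq2 1.42.0, upper-quartile factors, no filter, each library left out, the name form as a covariate, the replicate number as a block, single parental libraries as the control, TMM-scaled CPM, and HMGB1 counted with its copies. Likeness was computed over genes that reached an FPKM of 1 in 2 or more libraries and a range of at least 1 on log2(FPKM + 1), and the 3 genes with the highest r were named. From each list, at most 2 higher and 2 lower called genes with the largest log2 fold change were named by rule. MKI67, CDKN1A, EMD, the HP1 genes, CXCR4, TM7SF2 in TS cells, the let-7 axis genes and single marker genes were named after their values were seen. The same holds for the genes of the senescence list that were not called or not tested. The genes and lists were chosen with earlier results of these data known. The fits were also run on simulated counts with known changes, whose outcome is not reported here and is not used as support. Figures were drawn with matplotlib 3.10.9, and other values were computed with Python 3.11.15 and pandas 2.3.3. Promoter sequences are from RefSeq. The result of a gene of the sterol enzyme list is not reported here.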

Additional observations from a re-analysis of the deposited data

Results flagged for a closer look

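PR replicate 1 lay far above the other drug-resistant libraries for 3 genes, with a gap to the next library past Dixon's critical share of the range of the 4 libraries. LMNB2 was at an FPKM of 12.9 against 8.21 in the next library (0.844 of the range), LBR at 13.9 against 7.30 (0.892), and HMGB2 at 10.2 against 4.17 (0.861). This library alone has a suffix in its name. The group mixes 3 drugs, and chance alone gives such a gap in about 1 of 20 groups of like values for 1 gene. All 10 genes were checked, and the levels of these 3 went together over the 10 libraries (Pearson's r between 0.92 and 0.96). The 3 gaps are therefore not independent. PR replicate 1 was the highest drug-resistant library for 8 of the 10 genes. These are the 8 genes that were lower after the drugs, and their levels went together over the 10 libraries (Pearson's r between 0.71 and 0.99). They are therefore not 8 separate observations, and the share of all genes with this order was not counted. MKI67 was also highest in PR replicate 1 among these libraries, at 6.15 against at most 1.22, and its part in the gap was not tested.

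For 4 genes the H460 TS library lay beyond all 3 parental libraries on one side while the A549 TS library lay on the other side of its 2D library, a difference between lines that was not tested. On log2(FPKM + 1), TS minus 2D was -0.45 in H460 and 0.19 in A549 cells for LMNA, and 0.38 and -0.13 for LBR. It was 0.99 and -0.32 for HMGB3, and 0.38 and -1.04 for HMGA1.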

How the results depend on the processing

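In drug-resistant against parental cells the 8 lower genes kept their direction and call in all alternatives. HMGA2 was not called higher (0 genes) with limma on either FPKM scale or with no filter, and leaving out single libraries gave between 0 and 1. With 1 library left out, LMNA was reversed (-0.0202) without the DR library and reached 0.146 without PR replicate 1. It was higher with upper-quartile factors (0.257) and with limma (0.236 and 0.237), and no alternative called it. All genes called higher numbered between 2200 and 3374 with 1 library left out, the fewest without parental replicate 2 (2200) and PR replicate 2 (2264).

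In PR against parental cells limma gave 1858 and 1669 higher and 1168 and 1104 lower genes, for pseudocounts of 1 and 0.1, and upper-quartile factors 1347 lower. Leaving out libraries gave between 670 and 3967 higher and between 280 and 2694 lower genes, lowest without PR replicate 2, and between 4 and 8 of the 10 genes lower and between 0 and 1 higher. HMGA2 was not called (0) with no filter or with the replicate block. LMNA was reversed with limma (0.24 on both scales), upper-quartile factors (0.185), without parental replicate 3 (0.0309), without PR replicate 1 (0.00539) and with the replicate block (0.0297), and was lowest (-0.119) with 1 library left out. Deviations of same-numbered PR and parental libraries had r = 0.156 over 12496 genes in 2 pairs, so the numbers were not taken as pairs. The block gave 3878 higher and 2897 lower genes and changed no other call of the 10 genes.

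In PR against CR and DR cells, genes called higher and lower were 98 and 3 (limma, pseudocount 1), 14 and 1 (pseudocount 0.1), 289 and 66 (DESeq2), 442 and 67 (no filter), and with 1 library left out between 0 and 63 and between 0 and 3, all of the latter without parental replicate 1. LMNA was reversed with limma (0.00635 and 0.0064). With 1 library left out, LMNB1 was between -0.938 and 1.26, LMNB2 between -0.36 and 0.515, LBR between -0.128 and 0.863, TMPO between -0.516 and 0.799, HMGB1 between -0.151 and 0.463 and HMGB2 between -0.116 and 1.30, with the negative values without PR replicate 1.

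In TS against 2D cells, limma with a pseudocount of 0.1 gave 10 higher, DESeq2 304 higher and 223 lower, and 2D libraries of the first name form 6 higher and 0 lower. Leaving out libraries gave between 6 and 204 higher and between 0 and 144 lower, with HMGA2 called in DESeq2 (1 gene) and in between 0 and 1 genes with 1 library left out. Signs were reversed without the H460 TS library for LMNA (-0.568 to 0.45 with 1 library left out), LBR (-0.09 to 0.369) and HMGB3 (-0.292 to 1.02), and without either A549 library for TMPO (-0.399 to 0.0608) and HMGA1 (-0.995 to 0.369). A lone library is then assumed to vary like the others.

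For single libraries, 1 gene was past 2-fold higher in H460 TS cells with parental replicate 1 or 3 as the control, and 1 higher and 1 lower with TMM-scaled CPM. In A549 2D cells 1 was lower with parental replicate 1 or with TMM-scaled CPM. The cause of these changes was not tested. HMGA2 rests on 4 to 307 reads per library in H460 cells.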
